A study of Ursus arctos with 5 samples.

Results

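Membrane lipids, the phosphoinositides that carry signals and the proteins that move lipids between membranes were followed in grizzly bear muscle before and during hibernation. The genes were taken from the deposited expression table by symbol. They cover glycerolipid synthesis (AGPAT, GPAM, LPIN), phospholipases C (PLCB, PLCD, PLCG, PLCL) and D (PLD), phosphoinositide kinases (PI4K, PIP4K), inositol phosphatases (INPP, MTM1, MTMR), ABC proteins, oxysterol-binding proteins (OSBP), P4-ATPases (ATP9, ATP11) and sphingolipid enzymes (SMPD, CERS, SPTLC). The rule found 98 transcripts of 53 genes among 26614 deposited transcripts, of which 9093 carried a human gene name and stood for 4873 genes. DGAT, PLCE, PIP5K, ATP8, ATP10, LASS, ABCE and ABCG were also in the rule, matched no transcript and were not analysed here.

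The gastrocnemius, the main calf muscle, was biopsied in 2 captive grizzly bears named Star and Tia, in October when they were active and in February when they hibernated without food. Both bears were anesthetized for the biopsy, with a lower dose of the agent in hibernation. The labels give them as adults of 10 years, while the study describes a subadult and an adult. Each state has 2 single-end Illumina libraries, 1 per bear, so that n = 2 bears per state, with no repeat within a bear. In the labels, 1 sample per state holds both bears, and the bears were told apart by the column names of the table.

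Glycerolipid enzymes build phosphatidic acid and from it triglycerides and phospholipids. Phosphoinositides are phospholipids whose inositol head is phosphorylated by kinases and dephosphorylated by phosphatases, and phospholipase C cleaves one of them into diacylglycerol and inositol trisphosphate, which releases calcium from stores. ABC proteins use ATP to carry substrates across membranes, P4-ATPases flip phospholipids from the outer to the inner leaflet, and oxysterol-binding proteins exchange lipids where membranes touch. In muscle, the phosphatase myotubularin (MTM1) is known from a congenital myopathy, and lipin 1 (LPIN1) from a muscle disease with rhabdomyolysis.

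Values are RPKM, read numbers divided by the length of the transcript and the depth of its library. Low values fell on whole multiples of a single read for 95.3% to 95.8% of short transcripts, within 0.1 reads, which placed the libraries at 44.7 to 54.2 M aligned reads. Between 26.0 and 5228.6 reads stood behind a member's value, with a median of 286.5. No value in the table was under 1 RPKM, so anything lower in a single library was not analysed here, and how far a level could drop is bounded. A change is the hibernating minus the active value of a bear on the log2(RPKM + 0.5) scale, which understates the change of low transcripts. Of the skeletal muscle markers, 4 of 9 had a transcript (TTN, MYH1, MYH2, MYH7), with a summed level of 9467 to 13730 RPKM in every library. In both bears 3 of these 4 were lower in hibernation and 1 higher, where 16.1% and 48.7% of all named genes were. From active to hibernating, MYH1 went from 4823 to 2054 RPKM in Tia and TTN from 598 to 155 RPKM in Star. In whole tissue, fewer cells of a type and less RNA per cell cannot be told apart.

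Most members were expressed at a low level. The mean over the 4 libraries ran from 1.40 RPKM for PLD2 to 39.5 RPKM for ATP9A, and 77 of the 98 transcripts were under 5 RPKM. When hibernation was tested against activity with limma, 2 libraries each, 0 members passed at a Benjamini-Hochberg adjusted p of 0.05, nor did any other transcript (0.0%). The members' adjusted p ran from 0.577 to 0.997. At an unadjusted p under 0.05 there were 10 of the 98 members, of ABCB6, ABCC5, ATP9A, INPPL1, OSBP and PLCG1, where 8.41% of all transcripts had one. With the bear as a replicate block, 0 members had an adjusted p under 0.05, 12 an unadjusted one (13.6% of all transcripts had one in that fit), and the lowest adjusted p was 0.236. For 1 transcript alone, an exact two-sided permutation test with these 4 libraries gives at least p = 0.333. Each p reflects the spread between libraries of 2 animals. Values below are therefore given as levels and differences, and genes named beyond the fixed rule were chosen after their values were seen.

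Taking for each gene its most-read transcript, 22 of the 53 were higher in hibernation in both bears and 7 lower in both, where 48.7% and 16.1% of all named genes were. The other 24 went in opposite directions in the bears. The median change was 0.07 over these 53 genes and 0.15 over all 4873 named genes. The split depended on the scaling of the libraries. Median-ratio scaling moved the changes by about -0.10 in Tia and about -0.19 in Star, somewhat less for transcripts of low level. Then 15 genes were higher and 18 lower in both bears, with a median of -0.07. Upper-quartile scaling gave 14 higher and 19 lower, with a median of -0.11. Over all transcripts the median was -0.021 with median-ratio and -0.055 with upper-quartile scaling, so the whole table moved down as well. The shares of all named genes that were higher or lower under either scaling are not given, here or below.

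**Figure D1:**
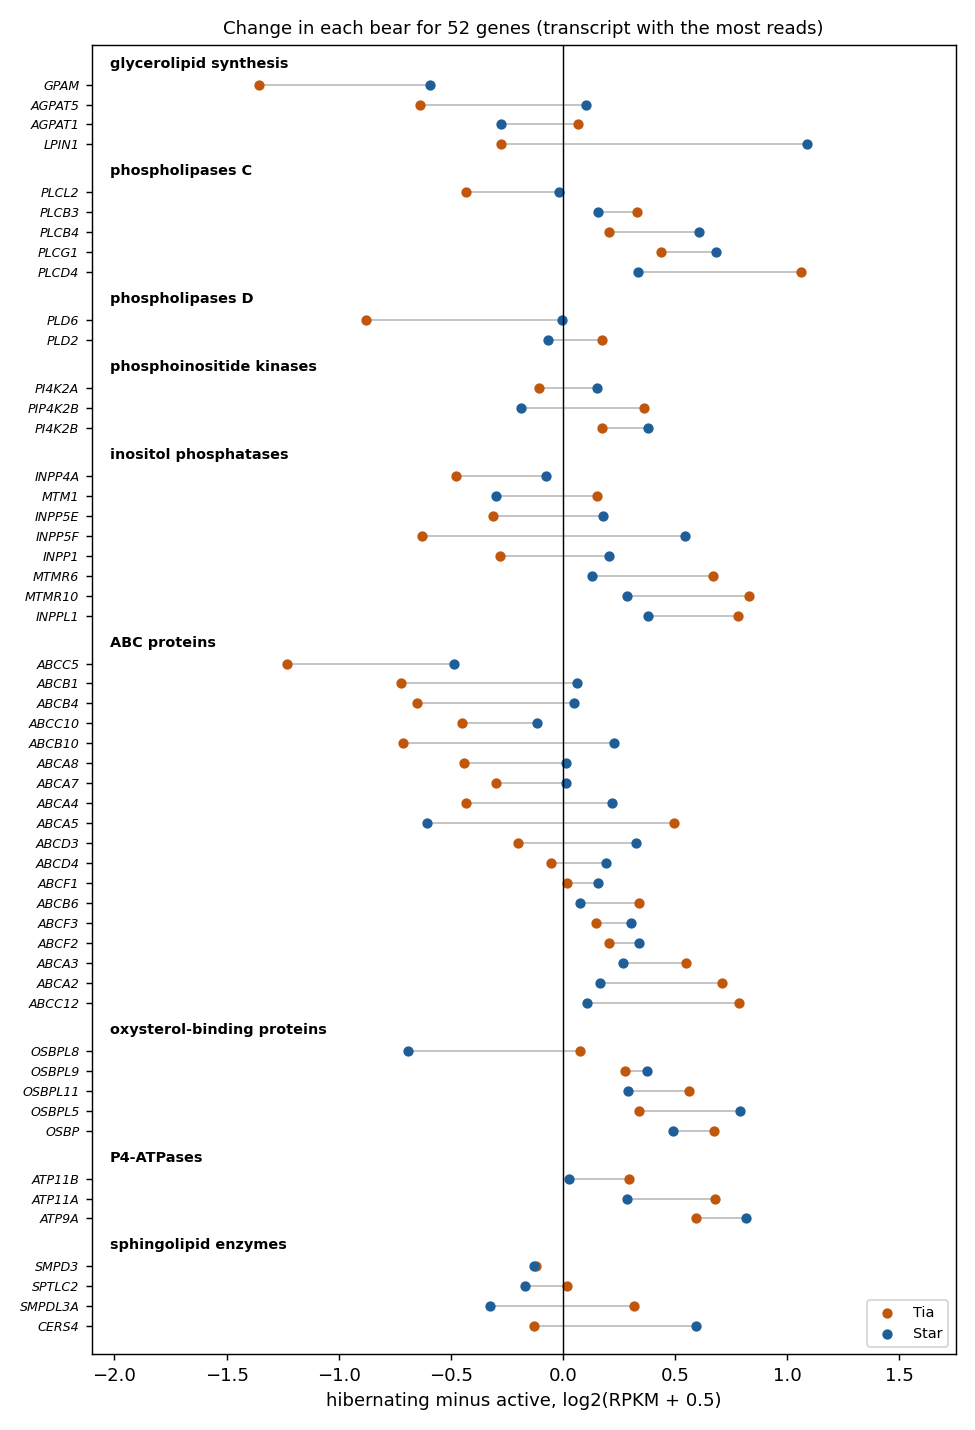
Change of 52 of the genes in Tia (orange) and Star (blue), as hibernating minus active log2(RPKM + 0.5) of the transcript with the most reads, grouped by family; a grey line joins the bears. GPAM and ABCC5 lie left of 0 in both bears, the oxysterol-binding proteins other than OSBPL8 and the P4-ATPases lie right of 0 (ATP11B not in Star with median-ratio scaling), and 23 of the genes shown have their points on opposite sides.

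Individual transcripts were also ranked by a score modelled on NOISeq, which the study used. The 53228 differences seen between Tia and Star in the same state serve as noise, and the score is the share of them that a transcript's hibernating-to-active difference exceeds in both ratio and RPKM. Of the 98 transcripts, 3 reached 0.8, and all of these were lower in hibernation: 2 of ABCC5 and 1 of GPAM. Over all transcripts 1.21% reached 0.8 with a lower and 2.49% with a higher level. The same 3 transcripts were at least 1.5-fold lower in both bears, against 0.834% of all transcripts, and 1 member, of ATP9A, was at least 1.5-fold higher in both, against 4.28%. Of the 9093 transcripts with a gene name, 95 were lower and 322 higher by that measure.

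Of the glycerolipid enzymes, GPAM was lower in both bears, and the other 3 went in opposite directions. GPAM, the mitochondrial acyltransferase that takes the committed first step of glycerolipid synthesis, was read by isotig29824 of 894 bases. It stood at 16.0 RPKM in active and 5.94 RPKM in hibernating Tia, and at 2.78 RPKM in active and 1.67 RPKM in hibernating Star. The level was lower in hibernation in each bear, but hibernating Tia was above active Star, so the states overlapped. Its log2 changes were -1.36 and -0.59 in Tia and Star, the latter just past 1.5-fold, with a mean of -0.98 (SE 0.85, adjusted p = 0.738 from limma), and it scored 0.879. The score was 0.741 among transcripts with a mean of at least 5 RPKM, and with a pseudocount of 1 the transcript was no longer 1.5-fold lower in both bears. The counting error of these changes was 0.10 in Tia, on 751.0 and 266.0 reads, and 0.21 in Star, on 111.0 and 81.0 reads. The shorter GPAM transcript, isotig38125 of 537 bases, was at 2.48 RPKM in active and 1.00 RPKM in hibernating Tia, and at 2.08 and 2.79 RPKM in Star, where the order of the states was turned. It rested on 27.0 to 81.0 reads per library.

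Among other lipid genes, LPL was also lower in hibernating Tia, and SCD and FASN were lower in both bears. SCD and FASN were looked up apart from the fixed lists. Other lipid genes, such as LPCAT3 below, were higher in both bears. Of the 9 fat cell markers, LPL alone had a transcript, at 120.3 RPKM in active and 63.4 RPKM in hibernating Tia and at 18.8 and 19.8 RPKM in Star. ADIPOQ, PLIN1, LEP, FABP4, CFD, CIDEC, CIDEA and LIPE had none and were not analysed here. SCD, a fatty acid desaturase, was at 189.0 RPKM in active and 5.20 RPKM in hibernating Tia, and FASN, fatty acid synthase, at 112.9 and 4.05 RPKM. In Star, SCD was at 10.1 and 2.79 RPKM and FASN at 5.79 and 2.96 RPKM. The part of fat cells in the GPAM values was not tested.

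The next enzymes of the same route differed between the bears. AGPAT5, an acyltransferase that turns lysophosphatidic into phosphatidic acid and the member of this family with the most reads, was at 27.8 RPKM in active and 17.7 RPKM in hibernating Tia, and at 18.9 and 20.4 RPKM in Star. Active Tia was thus the highest of the 4 libraries and the other 3 lay close together, with a mean log2 change of -0.27 (SE 0.26, adjusted p = 0.755 from limma). AGPAT1 differed by 0.07 and -0.28 in Tia and Star. LPIN1, the phosphatase that makes diacylglycerol from phosphatidic acid, had the widest gap between the bears in this family, at 2.41 RPKM in active and 1.90 RPKM in hibernating Tia and at 1.07 and 2.85 RPKM in Star.

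Of the 5 phospholipases C, 4 were higher in hibernation in both bears and 1 lower, where 48.7% and 16.1% of all named genes were. With median-ratio scaling 3 were higher in both. The 4 were those with catalytic activity. PLCG1, the isoform driven by receptor tyrosine kinases, had the most reads, with 8.10 RPKM in active and 11.1 RPKM in hibernating Tia and 8.31 and 13.6 RPKM in Star. Both hibernating libraries were above both active ones, and the active values of the bears lay close together. Its mean log2 change was 0.56 (SE 0.23, adjusted p = 0.592 from limma), and it scored 0.682. PLCD4, a delta isoform, was at 3.03 RPKM in active and 6.86 RPKM in hibernating Tia and at 3.55 and 4.61 RPKM in Star, so it also did not overlap, and its changes were 1.06 and 0.34. PLCB3 and PLCB4, isoforms downstream of G protein-coupled receptors, were measured at 1.49 to 3.52 RPKM, with mean changes of 0.24 and 0.41. PLCL2, which resembles phospholipase C but lacks its catalytic activity, went the other way, with 9.25 RPKM in active and 6.72 RPKM in hibernating Tia and 8.56 and 8.46 RPKM in Star. Among all named genes, 35.8% were higher and 8.11% lower without overlap between the states, and among the 5 of this family 3 and 1 were. After median-ratio scaling PLCB3 was lower in Star, by -0.03, and the other 3 with catalytic activity stayed higher in both bears.

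Phospholipases D were represented by 2 genes. PLD6, a mitochondrial member with the most reads of the family, was at 2.54 RPKM in active and 1.16 RPKM in hibernating Tia, and at 3.65 and 3.64 RPKM in Star, so that a difference appeared in Tia alone (mean log2 change -0.44, adjusted p = 0.767 from limma). PLD2, which makes phosphatidic acid from phosphatidylcholine, stayed within 1.30 and 1.58 RPKM in the 4 libraries.

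The phosphoinositide kinases differed little between the states. PIP4K2B, which phosphorylates phosphatidylinositol 5-phosphate, was at 13.3 RPKM in active and 17.3 RPKM in hibernating Tia and at 24.8 and 21.7 RPKM in Star. The bears differed more than the states here, and the mean log2 change of 0.09 (SE 0.34, adjusted p = 0.928 from limma) turned to -0.07 with median-ratio scaling. PI4K2A and PI4K2B, the type II phosphatidylinositol 4-kinases, lay between 2.20 and 3.01 RPKM in all libraries, with mean changes of 0.02 and 0.28.

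Among the inositol phosphatases, INPPL1, also known as SHIP2, which removes the 5-phosphate of the product of phosphoinositide 3-kinase and dampens insulin signaling, had the largest mean change. It was at 11.5 RPKM in active and 20.1 RPKM in hibernating Tia, and at 11.8 and 15.4 RPKM in Star. Both hibernating libraries were above the active ones, which were nearly equal, and the log2 change was 0.58 (SE 0.23, adjusted p = 0.592 from limma), and it scored 0.710. The myotubularin-related MTMR6, which had the most reads of the family, was at 11.2 RPKM in active and 18.1 RPKM in hibernating Tia and at 10.6 and 11.6 RPKM in Star (mean log2 change 0.40, adjusted p = 0.691 from limma). MTMR10, a relative thought to be inactive, was at 3.72 and 6.99 RPKM in Tia and at 4.31 and 5.36 RPKM in Star. With median-ratio scaling the change of MTMR6 in Star was -0.08, while those of INPPL1 and MTMR10 stayed above 0 in both bears. MTM1 itself differed by 0.15 and -0.30 by its longer transcript of 942 bases and by 0.75 and 0.02 by its shorter one of 413 bases.

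The other INPP genes did not share a direction. INPP5F, a phosphatase of the Sac family, was at 5.24 RPKM in active and 3.21 RPKM in hibernating Tia and at 6.38 and 9.53 RPKM in Star, opposite in the bears. INPP5E, a 5-phosphatase of the primary cilium, differed by -0.31 and 0.18, and all 3 of its transcripts went opposite ways in the bears. INPP4A was lower in both, by -0.48 and -0.07, and INPP1 differed by -0.28 and 0.20.

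The ABC proteins made up 19 of the 53 genes and 51 of the 98 transcripts. Both bears had 7 of these 19 genes higher and 2 lower in hibernation, where 48.7% and 16.1% of all named genes were. With median-ratio scaling 3 were higher and 7 lower, with a median of -0.09 where that over all transcripts was -0.021. ABCC5, an exporter of cyclic nucleotides and other organic anions, was lower in both bears by each of its 4 assembled transcripts, where 17.9% of all transcripts were. By isotig15381 of 4867 bases it stood at 9.47 RPKM in active and 1.97 RPKM in hibernating Tia, and at 3.69 and 1.60 RPKM in Star. By isotig07537 of 5663 bases, which held the most reads, it stood at 6.52 and 2.50 RPKM in Tia and at 3.79 and 2.56 RPKM in Star. Both hibernating libraries were below both active ones for each transcript, and the hibernating levels of the bears were close while active Tia was far above active Star.

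The log2 change of ABCC5 was -1.51 by isotig15381 (SE 0.44, adjusted p = 0.577 from limma), which scored 0.889, and -0.86 by isotig07537 (SE 0.32, adjusted p = 0.582), which scored 0.759. The counting error of the changes of isotig15381 was 0.07 in Tia and 0.09 in Star, on 420.9 to 2422.3 reads. With median-ratio scaling all 4 transcripts reached a score of 0.8. Transcripts of a gene can share stretches and thus reads, and the assembled sequences were not used here, so the 4 are not separate measurements.

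**Figure D2:**
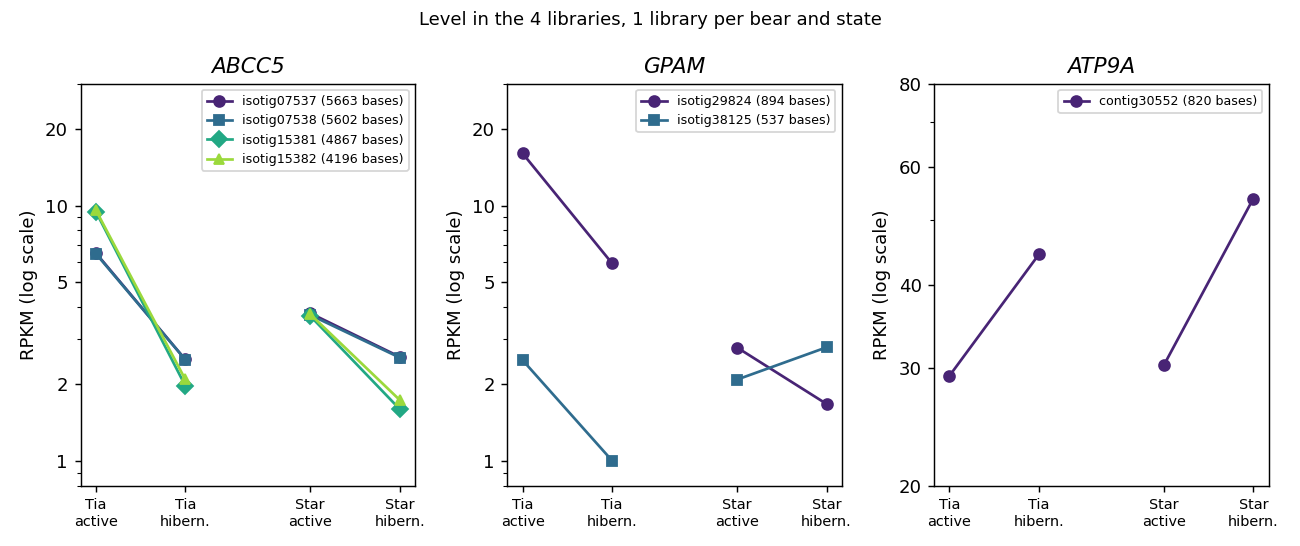
RPKM on a log scale in the 4 libraries for the transcripts of ABCC5, GPAM and ATP9A; lines join the active and hibernating library of a bear. All 4 ABCC5 transcripts lie between 1.60 and 2.56 RPKM in hibernation and between 3.69 and 9.60 RPKM in the active state, the GPAM transcripts part in Star, and ATP9A ends above its active level in both bears.

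Differences were smaller for the remaining ABC proteins. ABCA2, a transporter of lipids found in lysosomes, was at 17.5 RPKM in active and 28.9 RPKM in hibernating Tia, and at 20.9 and 23.5 RPKM in Star. By this most-read transcript the hibernating libraries were above the active ones, though the change in Star was -0.05 with median-ratio scaling. Its less-read transcript of 1383 bases went opposite ways in the bears, at 6.07 and 9.01 RPKM in Tia and at 8.19 and 6.64 RPKM in Star. ABCB6, a porphyrin transporter, was assembled as 14 transcripts of 550 to 3485 bases. Of these 13 were higher in both bears, against 45.8% of all transcripts, but they can share reads as those of ABCC5 can. They are therefore not separate measurements, and the count stands for 1 gene. All 14 lay between 1.11 and 2.81 RPKM, and the most-read one differed by -0.10 in Star with median-ratio scaling. The peroxisomal ABCD3 went opposite ways in the bears by its most-read transcript, by -0.20 in Tia and 0.32 in Star, a mean of 0.06. ABCB1, the drug exporter P-glycoprotein, and its close relative ABCB4, the phosphatidylcholine floppase, had nearly the same values, with 2.79 and 2.95 RPKM in active Tia and 1.49 and 1.70 RPKM in hibernating Tia. In Star they stood at 3.49 and 3.66 RPKM for ABCB1 and at 3.67 and 3.81 RPKM for ABCB4. Names came from the closest human protein, and reads of such similar genes could be shared.

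ABCF proteins carry the ATP-binding domains of the family but no membrane span, and act on translation. ABCF3, which had the most reads of all ABC genes, was at 6.85 RPKM in active and 7.64 RPKM in hibernating Tia and at 8.63 and 10.8 RPKM in Star, a mean log2 change of 0.23 (adjusted p = 0.787 from limma). ABCF2 was at 19.5 and 22.6 RPKM in Tia and at 19.3 and 24.5 RPKM in Star. By their most-read transcripts all 3 ABCF genes were higher in both bears, by mean changes of 0.09 to 0.27. The less-read transcripts of ABCF2 and ABCF3 differed by -0.80 and -0.15 in Tia and by 0.08 and 0.02 in Star. With median-ratio scaling the most-read transcript of ABCF1 was lower in both bears, by a mean of -0.06. With upper-quartile scaling that of ABCF3 was at -0.03 in Tia.

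Oxysterol-binding proteins were higher in hibernation in both bears for 4 of 5 genes, where 48.7% of all named genes were, and without overlap between the states for the same 4, where 35.8% were. OSBP, which carries cholesterol from the endoplasmic reticulum to the Golgi in exchange for phosphatidylinositol 4-phosphate, was at 5.97 RPKM in active and 9.83 RPKM in hibernating Tia, and at 6.20 and 8.89 RPKM in Star. Its log2 change was 0.58 (SE 0.22, adjusted p = 0.592 from limma), its score 0.679, and its 3 transcripts were all higher in both bears. OSBPL11, the member with the most reads, was at 7.63 RPKM in active and 11.5 RPKM in hibernating Tia and at 8.72 and 10.8 RPKM in Star, a mean log2 change of 0.42 (SE 0.22, adjusted p = 0.626 from limma). OSBPL5, which works at contacts of the endoplasmic reticulum with the plasma membrane, was at 3.19 and 4.16 RPKM in Tia and at 2.57 and 4.80 RPKM in Star. OSBPL9 differed by 0.28 and 0.37, with like values for all 4 of its transcripts. These 4 genes stayed higher in both bears with median-ratio and with upper-quartile scaling. OSBPL8 was the exception, with 4.78 RPKM in active and 5.07 RPKM in hibernating Tia but 2.11 and 1.12 RPKM in Star.

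By their most-read transcripts, 3 of 3 P4-ATPases were higher in both bears, where 48.7% of all named genes were. With median-ratio scaling 2 of 3 were. ATP9A, an endosomal P4-ATPase and the most abundant member by RPKM, was read by contig30552 of 820 bases. Its level was 29.2 RPKM in active and 44.4 RPKM in hibernating Tia, and 30.3 and 53.8 RPKM in Star. The active libraries were nearly equal and both hibernating ones lay above them, on 1111.0 to 2390.9 reads. The log2 change was 0.71 (SE 0.21, adjusted p = 0.577 from limma), with 0.60 in Tia and 0.82 in Star, and the score was 0.790. The score reached 0.819 with named transcripts alone and 0.812 with 1 transcript per gene. It fell to 0.698 with median-ratio and to 0.675 with upper-quartile scaling. With either scaling ATP9A no longer reached 1.5-fold in both bears. ATP11A, a flippase of the plasma membrane, was at 2.81 RPKM in active and 4.79 RPKM in hibernating Tia and at 3.28 and 4.11 RPKM in Star. ATP11B differed by 0.29 and 0.03, with a counting error of 0.08 in Star, and by -0.16 in Star with median-ratio scaling. Its less-read transcript of 3752 bases went opposite ways in the bears, by 0.20 in Tia and -0.23 in Star.

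Sphingolipid enzymes gave 4 genes with no shared direction. SMPDL3A, a phosphodiesterase named for its likeness to acid sphingomyelinase, had the most reads, at 5.23 RPKM in active and 6.64 RPKM in hibernating Tia and at 6.62 and 5.19 RPKM in Star. The bears thus mirrored each other, and the mean log2 change was -0.004 (SE 0.26, adjusted p = 0.996 from limma). CERS4, a ceramide synthase, differed by -0.13 and 0.59, SPTLC2, a subunit of the enzyme that starts sphingolipid synthesis, by 0.02 and -0.17, and SMPD3, a neutral sphingomyelinase, by -0.12 and -0.13.

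**Figure D3:**
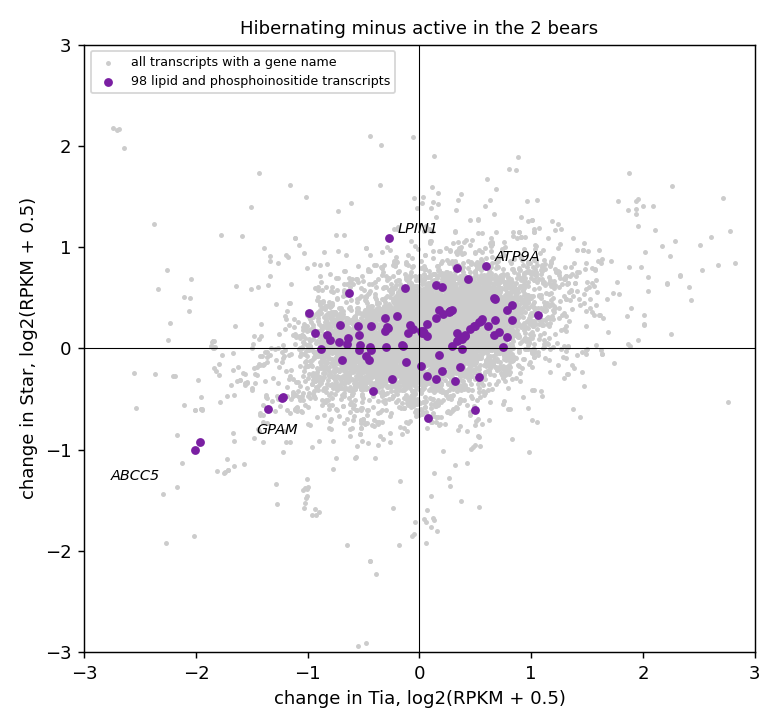
Change in Star against change in Tia, hibernating minus active log2(RPKM + 0.5), for all transcripts with a gene name (grey) and the 98 members (purple). The axes end at 3, and 12 grey transcripts lie outside them; the ABCC5 transcripts and the longer GPAM transcript lie at the lower left of the members and ATP9A at the upper right.

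A set of weakly expressed members was lower in hibernating Tia alone. In 14 transcripts of 12 genes Tia differed by -0.5 or less while Star stayed within 0.4 of 0, and 12 of the 14 were under a mean of 5 RPKM. They included ABCB1, ABCB4, ABCB10, PLD6, and the less-read transcripts of ABCD3, ABCF2, AGPAT1 and GPAM. The reverse, lower in Star alone, was seen in 1 of the 98. The pattern was not particular to lipid genes, since 14.3% of the members showed it against 13.7% of all transcripts, and 1.02% against 1.5% showed the reverse. It was seen in 17.0% of all transcripts under 5 RPKM and in 8.11% of those at 5 RPKM or more. Within 7 of the 21 genes with several transcripts, mean changes of both signs were found, ABCD3 and ABCF2 among them, where the less-read transcript was the lower one.

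**Figure D4:**
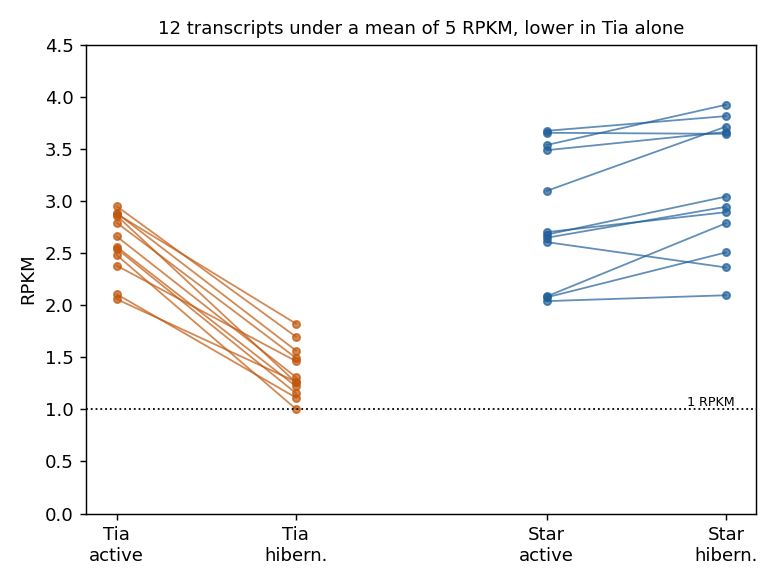
RPKM in the 4 libraries of the 12 member transcripts under a mean of 5 RPKM that were lower in hibernating Tia alone; lines join the libraries of a bear and the dotted line marks 1 RPKM, the lowest level analysed. The values end between 1.00 and 1.82 RPKM in hibernating Tia and lie above 2 RPKM in both libraries of Star.

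Of 99 further genes of phospholipid, inositol phosphate and sphingolipid pathways on a fixed list, 35 had a transcript. Taken the same way, 19 of these were higher in both bears and 1, ITPKC, lower, where 48.7% and 16.1% of all named genes were. The median change was 0.18, and with median-ratio scaling 10 were higher and 11 lower. Their median was then 0.03, where that over all transcripts was -0.021. By limma, 0 of the 35 passed an adjusted p of 0.05, 3 had an unadjusted p below it (8.19% of all named genes), and 1 reached a score of 0.8 with a higher level (2.46%). That one was LPCAT3, which puts polyunsaturated acyl chains into phospholipids, at 19.6 RPKM in active and 55.4 RPKM in hibernating Tia and at 24.2 and 35.3 RPKM in Star. The states did not overlap, and the log2 change of 1.01 (SE 0.28, adjusted p = 0.577 from limma) went with a score of 0.892. DGKD, a kinase that turns diacylglycerol into phosphatidic acid, was the one gene at least 1.5-fold higher in both bears, at 2.60 RPKM in active and 5.48 RPKM in hibernating Tia and at 2.90 and 5.24 RPKM in Star, and it fell short of 1.5-fold in Star, with 0.56, under both scalings. PTDSS2, which makes phosphatidylserine, was at 9.07 and 16.9 RPKM in Tia and at 11.2 and 14.8 RPKM in Star. NPC2, a carrier of lysosomal cholesterol, differed by 0.55 and 0.50, and ESYT1, a lipid transfer protein of contacts between the endoplasmic reticulum and the plasma membrane, by 0.66 and 0.58. These 5 genes stayed higher in both bears with both scalings.

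**Figure D5:**
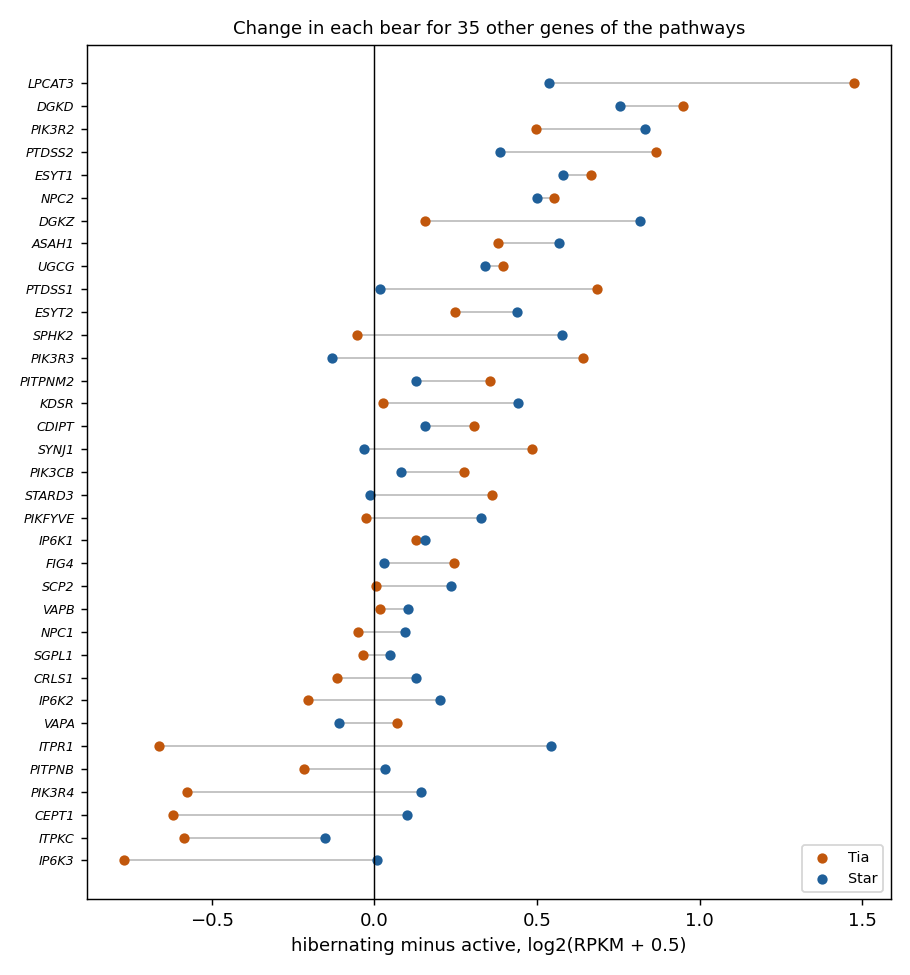
Change in Tia (orange) and Star (blue) of the 35 listed pathway genes outside the 53, as hibernating minus active log2(RPKM + 0.5) of the transcript with the most reads, ordered by the mean. LPCAT3 and DGKD head the order, and ITPKC is the one gene below 0 in both bears.

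Markers of other cell types were few in the table. Summed over their genes with a transcript, endothelial markers (3 of 9) stood at 15.1 to 23.7 RPKM and the macrophage marker CD68 (1 of 7) at 3.28 to 7.12 RPKM, highest in the hibernating libraries. Connective tissue markers (4 of 8) summed to 336.7 RPKM in active and 276.5 RPKM in hibernating Tia and to 160.1 and 229.8 RPKM in Star. Within them COL1A1 was at 193.1 RPKM in active Tia and at 6.79 to 10.95 RPKM in the other 3 libraries, COL3A1 and COL1A2 were higher in hibernation in both bears, and FBN1 was lower in both, at 24.9 and 7.58 RPKM in Tia and 14.1 and 7.27 RPKM in Star. The Schwann cell list had S100B alone (1 of 5), highest in active Tia with 13.1 RPKM against 1.19 to 3.44 RPKM. Slow fibre markers (3 of 7) summed to 2255 to 5693 RPKM, higher in both libraries of Tia, and fast fibre markers (4 of 7) to 7260 to 13980 RPKM, higher in both of Star. Of the 4 fast markers 3 were lower and 1 higher in hibernation in both bears, where 16.1% and 48.7% of all named genes were. Of the 3 slow ones, 1 was higher and 1 lower in both. The part of all these markers in the values above was not tested.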

How the data were processed

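The authors assembled transcripts de novo from pyrosequencing and paired-end Illumina reads with Newbler and SOAPdenovo, named them by BLAST against human Ensembl proteins and aligned the single-end reads with SOAP2. They deposited RPKM per transcript, bear and month with the transcript length. How reads that match several transcripts were assigned is not given in the sources used here. Pooled and paired-end samples were not analysed here.

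From the RPKM, log2(RPKM + 0.5) of the 4 libraries was fitted with limma 3.58.1 under R 4.3.3. The prior variance followed the mean level, and p-values were adjusted after Benjamini and Hochberg across the 26614 transcripts. Libraries of a bear come from 1 animal, so the bear pairs them (Pearson r of the bears' deviations between states 0.358 across transcripts, which are not replicates), and a fit with the bear as a block was an alternative. The score follows NOISeq's description and was written for this work. Aligned reads were estimated from steps of RPKM times length in transcripts up to 400 bases and 6 RPKM. Counting errors cover counting alone. The score ranks transcripts and is not a p-value. Both methods were run on simulated data. Python 3.11.15, pandas 2.3.3, numpy 2.4.6 and matplotlib 3.10.9 were used. Members, lists and families were chosen with earlier results of these data known. By rule, full values are given for members with a score of 0.8 or a 1.5-fold difference in both bears and for the most-read gene of each of 9 families. Alternatives covered pseudocount, scaling, a minimum of 5 RPKM, named transcripts only, 1 transcript per gene, stricter thresholds, the block and each bear left out. 1 member gene is in the counts and not reported here by name. Of the 53 symbols, 51 are in the RefSeq annotation of the brown bear (UrsArc2.0), from which no coordinates were taken.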

Additional observations from a re-analysis of the deposited data

How the results depend on the processing

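In limma's fits, 0 members passed an adjusted p of 0.05 (10 of 98 unadjusted, 12 with the replicate block) under any of the alternatives run, the replicate block included (0 members). Transcripts with a score of at least 0.8 numbered 3, 5 with median-ratio and with upper-quartile scaling (all 4 of ABCC5, and GPAM), 4 with named transcripts only (ATP9A added), 2 with 1 transcript per gene (ATP9A and GPAM), 1 with a minimum of 5 RPKM (ATP9A, while GPAM was at 0.741 and ABCC5 averages less than 5) and 0 at a threshold of 0.9. Members at least 1.5-fold lower in both bears numbered 3, 5 with either scaling, 2 with a pseudocount of 1 (GPAM lost), 1 with the minimum of 5 RPKM, 1 with 1 transcript per gene and 0 at 2-fold. The 1 member at least 1.5-fold higher in both was lost (0) with either scaling and at 2-fold. In a single bear, 7 to 13 members were at least 1.5-fold higher and 5 to 16 lower, the larger counts in Tia. The shares of all transcripts that met the score or fold rules under these alternatives are not given. Whether these counts differ from those of the whole table is therefore not known. The median log2 change of the member transcripts was 0.09, -0.059 with median-ratio and -0.093 with upper-quartile scaling, 0.23 with the minimum of 5 RPKM, and 0.072 to 0.143 with a bear left out. For PIP4K2B the mean change of 0.09 turned to -0.074 with median-ratio and -0.11 with upper-quartile scaling, and ran from -0.19 to 0.36 in single bears, that of AGPAT5 from -0.64 to 0.10 and that of SMPDL3A from -0.32 to 0.32. The score does not use the pseudocount and cannot be computed with 1 bear, nor can limma's test. The bear's block lowered the SE of GPAM from 0.85 to 0.27, and its unadjusted p from 0.294 to 0.00976 in limma's fits. Reads behind a member's value go down to 26.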
